A study of Mus musculus with 8 samples.

Results

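The genes described here are the amyloid precursor family, App, Aplp1 and Aplp2, and the gamma-secretase subunits Psen2, Ncstn, Aph1a and Psenen. They were found by symbol in a table of 15035 genes from bulk RNA sequencing, where all 7 were present and all 7 passed the filter on low values. Aplp1 was chosen by its lower normalized count in one genotype, so its difference between genotypes is described here without a test. The other 6 were taken as its relatives and as the enzyme that cuts them.

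The tissue was the auditory nerve of mice at postnatal day 21, with both cochleas of an animal combined into 1 library. Wild-type animals gave 4 libraries, numbered 1 to 4, and animals labelled Mef2c heterozygotes (+/-) gave another 4, numbered 5 to 8. Mef2c encodes a MADS-box transcription factor. The labels give neither the construction of the Mef2c allele nor the strain, sex or litter, and no Cre line, transgene or treatment. The design asks which transcripts of the nerve differ between the genotypes.

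The amyloid precursor family are single-pass membrane proteins with large ectodomains that are found at synapses, on axons and on glia. Their ectodomain is first shed by an alpha- or beta-secretase, and the membrane stub that remains is then cut within the membrane by gamma-secretase. That enzyme is a complex of a presenilin, which holds the catalytic site, with nicastrin (Ncstn), an APH1 protein and the presenilin enhancer (Psenen). App and Aplp2 are expressed in most cell types, whereas Aplp1 is restricted mainly to the nervous system, where neurons and oligodendrocytes express it.

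Counted reads were estimated by dividing the summed values of each library by the step of which most values were whole multiples. They numbered 13363262 to 21507345 per library, and the median normalized count lay between 461.1 and 472.2. Mef2c itself had 402.2 to 508.7 normalized counts in wild type and 583.3 to 735.1 in the libraries labelled heterozygote, which goes against the label. The values are per gene, so they do not show whether a deleted exon was transcribed. Directions below are therefore between libraries as labelled. Wild-type library 1 stood apart, with correlations of 0.930 to 0.943 with the other libraries across genes against 0.951 to 0.981 among those. Wild-type library 1 and heterozygote-labelled library 5 had 7.6 to 12 normalized counts of Xist against 5175 to 8615 elsewhere. Results that turn on these libraries are given with and without them.

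Positions are on the mm10 (GRCm38) assembly, from GENCODE M21. App lies on the minus strand at chr16:84949685-85173766 and overlaps the antisense gene Gm10791 of the table. The annotation has Aplp2 on the minus strand at chr9:31149557-31211815 and Aplp1 on the minus strand at chr7:30434982-30445535. The upstream windows of these 3 genes are shown because the relatives share a protein architecture while their transcripts differed in how they compared between genotypes. Each line gives the 250 bases before the RefSeq start site (GRCm38.p6), read along the gene's own strand from 5′ to 3′, with each GGGCGG in capitals. This is the letter pattern of the GC box that Sp1-type factors bind.
App, chr16:85173708-85173957, minus strand: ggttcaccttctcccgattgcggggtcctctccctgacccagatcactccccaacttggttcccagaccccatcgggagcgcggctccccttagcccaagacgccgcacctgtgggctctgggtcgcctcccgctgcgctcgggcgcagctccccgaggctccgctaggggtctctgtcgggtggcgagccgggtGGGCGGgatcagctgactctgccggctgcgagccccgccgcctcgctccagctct
Aplp1, chr7:30445583-30445832, minus strand: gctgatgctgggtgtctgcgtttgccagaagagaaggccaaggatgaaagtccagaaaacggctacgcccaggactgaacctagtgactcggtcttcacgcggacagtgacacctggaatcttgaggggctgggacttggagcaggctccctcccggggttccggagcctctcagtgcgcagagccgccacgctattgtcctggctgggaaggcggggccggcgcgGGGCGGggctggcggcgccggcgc
Aplp2, chr9:31211849-31212098, minus strand: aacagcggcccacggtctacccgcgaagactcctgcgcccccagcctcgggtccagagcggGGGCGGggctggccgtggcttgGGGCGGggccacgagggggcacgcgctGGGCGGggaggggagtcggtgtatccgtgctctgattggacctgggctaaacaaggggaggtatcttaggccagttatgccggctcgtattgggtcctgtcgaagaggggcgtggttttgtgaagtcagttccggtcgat

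All 3 windows are rich in CpG. They hold 23 (App), 20 (Aplp1) and 22 (Aplp2) CpG dinucleotides, which puts them at percentiles 86.7, 82.1 and 85.2 of 32851 windows of the same length in the RefSeq table. GGGCGG, searched on both strands, occurs 1 time before App, 1 time before Aplp1 and 3 times before Aplp2, and 32.7% of all windows hold it. CCAAT occurs 2 times before Aplp2 and not in the other 2 windows (33.9% of all windows). The 2 motifs share no bases in these windows. TATAAA (12.4% of windows), CACGTG (6.02%) and the MEF2 box (2.92%), searched in the same way, occur in none of the 3. A match or its absence describes the letters of these windows only.

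Aplp1 encodes the family member most tied to the nervous system. Its normalized counts in wild type were 7966, 8011, 7394 and 7908, in the order of the replicate numbers. In the libraries labelled heterozygote they were 4611, 5435, 5249 and 4649. The genotypes did not overlap, and the gap between the lowest wild-type library and the highest heterozygote-labelled library was wider than the range within either genotype. The means were 7819 ± 287 and 4986 ± 419 (SD, n = 4 each). This is a log2 fold change of -0.65, or 0.636 of the wild-type level. These values led to the choice of the gene and are given as a description. Without wild-type library 1 the log2 fold change was -0.64, without heterozygote-labelled library 5 it was -0.62, and without both it was -0.61. In the authors' deposited table its ratio was 0.638.

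App, the precursor of amyloid beta peptide, had 26249, 30558, 28035 and 27056 normalized counts in the wild-type libraries. The libraries labelled heterozygote had 28705, 31765, 30985 and 29934. The highest wild-type library, number 2, lay above 2 of the 4 libraries labelled heterozygote, so the genotypes overlapped. The log2 fold change was 0.12 (95% interval -0.11 to 0.35, limma-trend adjusted p 0.616). Aplp2, the most widely expressed relative, had 14359, 16598, 18375 and 16921 normalized counts in wild type. In the libraries labelled heterozygote it had 18337, 18731, 16586 and 17305. Wild-type library 1 was the lowest of all 8 for both genes, and wild-type library 3 was above 3 of the 4 heterozygote-labelled libraries for Aplp2. Its log2 fold change was 0.10 (95% interval -0.13 to 0.33, limma-trend adjusted p 0.664), and without wild-type library 1 it was 0.036. With the trend on transcript length removed from each library, App turned to -0.11 and Aplp2 stayed above 0 at 0.050.

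**Figure D1:**
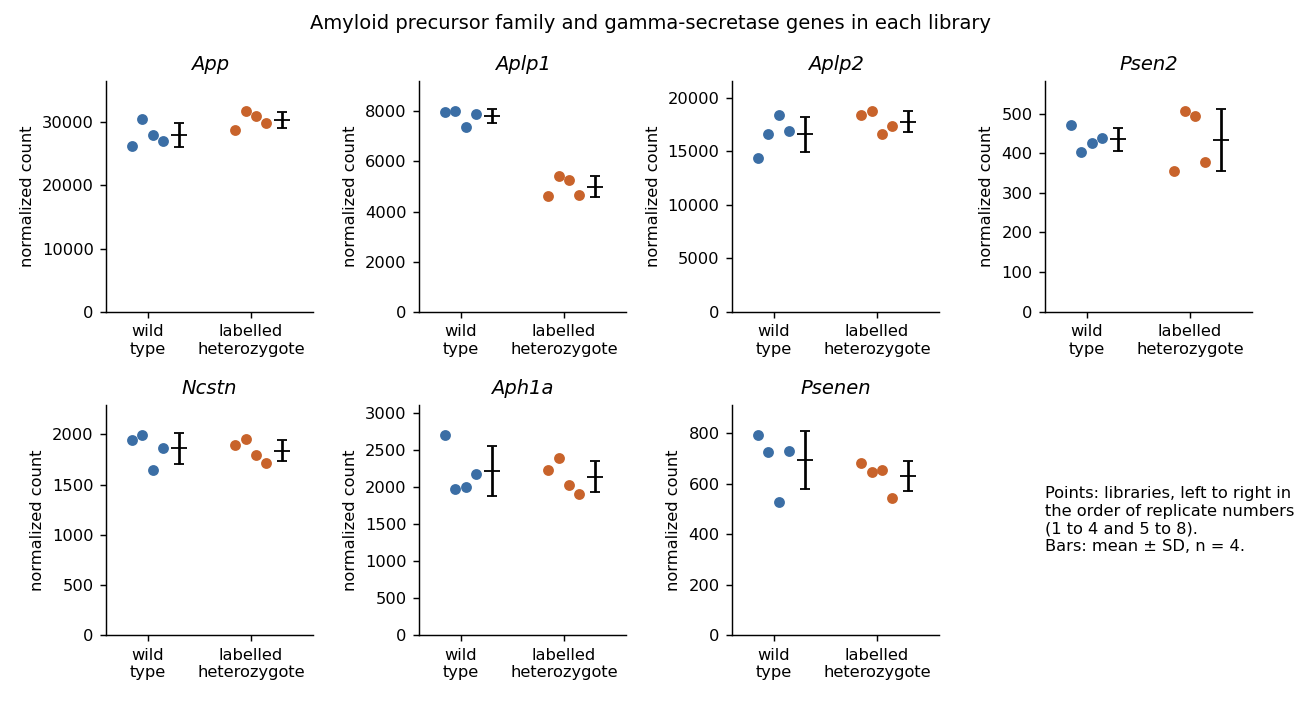
Normalized counts (vertical axis, from 0) of each of the 7 genes in 4 wild-type and 4 heterozygote-labelled libraries, with the mean and SD beside the points. Aplp1 shows 2 separate groups, 7394 to 8011 and 4611 to 5435, whereas the points of the other 6 genes overlap between genotypes.

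The family was then compared on a scale per length, since a longer transcript collects more reads. Lengths came from the GENCODE transcript with the longest coding sequence, and the order of App and Aplp2 depends on which length is used. App is assigned a transcript of 8167 bases with a coding sequence of 2310 bases, Aplp2 one of 3634 and 2253 bases, and Aplp1 one of 2343 and 1962 bases. Per kb of transcript, Aplp2 was above App in 8 of 8 libraries, whereas per kb of coding sequence App was above Aplp2 in 8 of 8. In wild type, the level per kb of transcript was 4558 ± 457 for Aplp2, 3425 ± 229 for App and 3337 ± 123 for Aplp1 (SD, n = 4), so that App and Aplp1 did not differ beyond their spread on this scale. Per kb of coding sequence App was at 12110 ± 810 and Aplp1 at 3985 ± 146 in wild type (SD, n = 4), so this order, too, depends on the length. In the libraries labelled heterozygote Aplp1 was the lowest on either scale, at 2128 ± 179 per kb of transcript (SD, n = 4).

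As a share of the family per kb of transcript, Aplp1 made up 27.1% to 32.2% in wild type and 18.7% to 21.1% in the libraries labelled heterozygote. Per kb of coding sequence these ranges were 15.7% to 18.6% and 10.3% to 11.4%. The share of App was 29.2% to 31.9% in wild type against 33.4% to 35.8% per kb of transcript. These shares include Aplp1, whose fall chose it, and a lower share of one gene raises the others by construction. The sum of the 3 genes per kb of coding sequence was 21796 to 24679 in wild type and 22916 to 24835 in the libraries labelled heterozygote, which overlap.

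**Figure D2:**
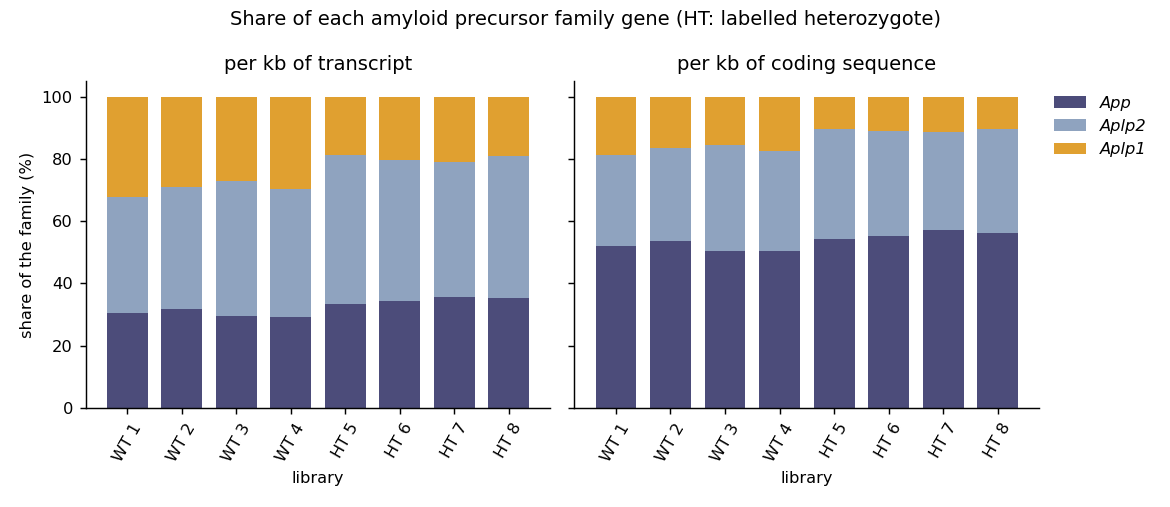
Share of App, Aplp2 and Aplp1 in the family (vertical axis, percent) in each library, per kb of transcript (left) and per kb of coding sequence (right). The Aplp1 segment is thinner in all 4 heterozygote-labelled libraries, at 18.7% to 21.1% against 27.1% to 32.2% on the left, and which of App and Aplp2 is the larger depends on the length used.

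The gamma-secretase subunits did not pass the test. Psen2 (chr1:180227004-180263438, minus strand), a presenilin and so a catalytic subunit, had 472.4, 403.0, 426.2 and 437.2 normalized counts in wild type. In the libraries labelled heterozygote it had 355.2, 506.2, 494.7 and 378.8, so that these 4 held both the lowest and the highest values of all 8. Its log2 fold change was -0.018 (95% interval -0.34 to 0.30, limma-trend adjusted p 0.962). The direction turned without the 2 libraries low in Xist (0.11). It was also above 0 without wild-type library 1 or without heterozygote-labelled libraries 5 or 8, one at a time (0.022 to 0.071).

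Ncstn, the nicastrin ectodomain subunit that receives the substrate stub, had 1945, 1996, 1650 and 1860 normalized counts in wild type. The other genotype had 1894, 1952, 1800 and 1711, all inside the wild-type range. Its log2 fold change of -0.016 had the narrowest 95% interval of the 6 tested genes, from -0.22 to 0.19, at a limma-trend adjusted p of 0.947. It was above 0 without wild-type library 1 or 2 or heterozygote-labelled library 8 (0.0055 to 0.018). Ncstn (chr1:172066013-172082795, minus strand) overlaps Copa on the other strand, and Aph1a (chr3:95893969-95898288, plus strand) overlaps Car14. Aph1a, the scaffold subunit, had 2700, 1975, 1999 and 2174 normalized counts in wild type, with library 1 far above the other 3. The libraries labelled heterozygote had 2224, 2388, 2029 and 1908, all inside the wild-type range except the last. Its log2 fold change was -0.043 (95% interval -0.30 to 0.21, limma-trend adjusted p 0.884), and it turned to 0.057 when wild-type library 1 was left out and to 0.0096 when heterozygote-labelled library 8 was.

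Psenen, which encodes the small subunit needed for the presenilin to mature, had 794.2, 724.7, 528.0 and 730.8 normalized counts in wild type. The libraries labelled heterozygote had 682.1, 645.6, 655.9 and 544.7, all inside the wild-type range. The log2 fold change was -0.12 (95% interval -0.43 to 0.19, limma-trend adjusted p 0.697). Leaving out either wild-type library 1 or number 8 of the other genotype gave -0.054, and leaving out wild-type library 3 gave -0.25. It was 0.12 when the trend of each library with transcript length was removed. Psenen has the shortest transcript of the 7, at 708 bases. Its gene (chr7:30561863-30563627, minus strand) also overlaps the divergent gene U2af1l4 by 327 bases, and it is not stated whether counting used the strand, so reads in that stretch could belong to either gene.

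Of the 6 genes tested, 0 had a limma-trend adjusted p under 0.05, 0 had an unadjusted p under 0.05, and 0 had genotypes that did not overlap. Across all 14870 genes tested these shares were 0.0807% (0.00672% higher, 0.074% lower), 14.1% (6.72% higher, 7.34% lower) and 7.26% (3.4% higher, 3.86% lower). The authors' deposited table gave these 6 genes ratios between 0.911 (Psenen) and 1.08 (App), with an FDR of 0.516 for App and 0.67 or more for the others. A missed threshold with 4 libraries per genotype does not show that levels are equal. The intervals above give the sizes that remain possible.

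**Figure D3:**
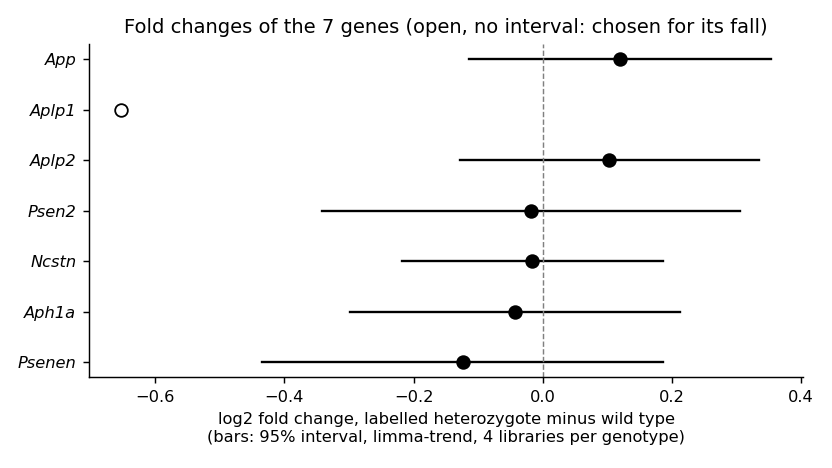
Log2 fold change (horizontal axis, libraries labelled heterozygote minus wild type) of the 7 genes, with 95% intervals from limma-trend for the 6 that were tested. The intervals of all 6 cross 0. Aplp1, the open point at -0.65, was chosen for its fall and has no interval.

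Levels of the subunits were ordered per kb of transcript. Aph1a was the highest at 1382 ± 211 in wild type, followed by Psenen at 981 ± 163, Ncstn at 642 ± 52.5 and Psen2 at 215 ± 14.3 (SD, n = 4 each). Each of these was above the next in 8 of 8 libraries. The other APH1 genes of the mouse, Aph1b and Aph1c, stood at 200.1 ± 29.7 and 74.2 ± 7.84 in wild type, and Psen2 was above Aph1b in 5 of 8 libraries only. Aph1b and Aph1c share 956 stretches of 50 bases (19.7% and 18.5% of their transcripts), so how reads were split between them is uncertain. Per kb of coding sequence Aph1a was again above Psenen in 8 of 8 libraries, while Psen2 was the lowest. On that scale Aph1b was above Ncstn in 8 of 8 libraries, at 1274 ± 189 against 877 ± 71.7 in wild type (SD, n = 4 each). Aph1c was also above Psen2 in 8 of 8, so the order below Psenen depends on the length used. No 50-base stretch was shared between any 2 of the 7 genes.

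The spread within genotypes also differed among the 7. That of Aplp1 comes from the same values that led to its choice and is not independent of it. On the log2 scale the pooled SD of App was 0.081, at percentile 5.56 of the 36 genes within 0.5 log2 units of its level. For Aplp1 it was 0.094, at percentile 17.4 of 367 genes of like level. Psenen, Psen2 and Aph1a had the largest SDs, at 0.21, 0.20 and 0.18. These stood at percentiles 58.1, 37.4 and 62.2 of genes of their own level. App had rank 30 and Aplp2 rank 67 in mean normalized count among all genes tested, a scale that does not correct for length.

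Aplp1 and Psenen lie on chromosome 7 with 116 kb between them. Of the 15 genes of the table within that stretch and 100 kb to either side, 14 were tested besides Aplp1. None had a limma-trend adjusted p under 0.05, 2 had an unadjusted p under 0.05 (1 higher, 1 lower; 14.1% of all genes did), and in 0 of the 14 the genotypes did not overlap (7.26% of all genes). Their median log2 fold change was -0.12, against 0.015 over all genes. The 4 genes of the table between Aplp1 and Psenen (Arhgap33, Proser3, Hspb6 and Lin37) had log2 fold changes from -0.020 to 0.37, each with genotypes that overlapped.

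By Pearson correlation of log2(value + 1) over the 8 libraries, among 13355 other genes with a mean of at least 50, the 5 genes most like Aplp1 were Stmn4 (r = 0.986), Enpp2 (0.982), Mt2 (0.980), Rhob (0.978) and Mag (0.978). Stmn4 encodes a stathmin, Enpp2 autotaxin, Mt2 a metallothionein, Rhob a small GTPase and Mag the myelin-associated glycoprotein. All 5 were lower in the libraries labelled heterozygote, with log2 fold changes from -1.03 (Mt2) to -0.32 (Rhob), so the likeness across all 8 libraries includes the genotype difference by which Aplp1 was chosen. For App the genes most alike included Lrrfip1 (r = 0.979), Rrbp1 (0.959), Piezo1 (0.954) and Dgcr2 (0.953). All these genes were measured in the same 8 libraries and share their depth.

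Marker genes of other cells moved beside Aplp1. Of 6 oligodendrocyte genes that Schwann cells are not known for (Mog, Mobp, Opalin, Ermn, Olig1 and Olig2), 5 were lower with no overlap between genotypes (3.86% of all genes were), all but Opalin. Mog and Mobp, both myelin proteins, had a limma-trend adjusted p under 0.05 (0.0354 and 0.0495), as 0.074% of all genes did in this direction. Neither passed when library 2, 4 or 8 was left out (limma-trend adjusted p 0.152 to 0.229), and Mobp also missed the threshold without library 1 (0.0532) or 7 (0.0570). Mobp further missed it with no filter, a mean of at least 50, a pseudocount of 0.1, either scaling or the robust fit, up to an adjusted p of 0.0686 with limma-trend. This list was written with earlier results of these data known, so its count is not independent evidence. Summed over the 6 genes, the normalized count was 20193, 19149, 15960 and 19948 in wild type. It was 3830, 9157, 8986 and 7301 in the libraries labelled heterozygote. The lowest wild-type library for this sum, number 3, was also the lowest for Aplp1, and heterozygote-labelled library 5 was the lowest for both. The order did not match throughout. Libraries 5 and 8 had nearly the same Aplp1 (4611 and 4649) but sums of 3830 and 7301. In wild type the highest sum was in library 1 and the highest Aplp1 in library 2. No gene of the list was at 0 in any library.

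The 8 astrocyte genes summed to 23074 to 33676 in wild type and 12712 to 21099 in the libraries labelled heterozygote. Of these genes, 3 of 8 (37.5%) were lower without overlap, against 3.86% of all genes. For 8 genes of myelinating Schwann cells the sums were 214840 to 252008 and, in the other genotype, 162985 to 193748. Mbp and Pllp were lower without overlap (25% of the list, against 3.86% of all genes). The 14 neuronal genes summed to 228857 to 293273 and 238465 to 287407, which overlap. Of the 14, 0 had genotypes that did not overlap, against 7.26% of all genes. A log2 fold change above 0 was seen in 4 of the 14 (28.6%, against 52.3% of all genes), with a median of -0.10. Only Pvalb, at -0.57, had an unadjusted limma-trend p under 0.05 (0.00635, adjusted p 0.259). That is 7.14% of the list, against 14.1% of all genes. The summed neutrophil genes ran from 117.2 to 2363 in wild type and from 668.3 to 6072 in the other genotype. Of these genes, 4 of 5 (80%) were higher without overlap, against 3.4% of all genes. These lists, too, were written with earlier results of these data known. The 7 genes listed for bone cells summed to 12086 to 23376 and 20704 to 29385, which overlap. Col11a2 alone held 7636 to 11782 and 13665 to 14881 of these, so the sum does not stand for bone cells as such. It was the only 1 of the 7 without overlap (14.3%, higher, against 3.4% of all genes). The part of cell makeup in the Aplp1 difference was not tested. In bulk tissue, fewer cells of a type and less RNA per cell cannot be told apart.

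**Figure D4:**
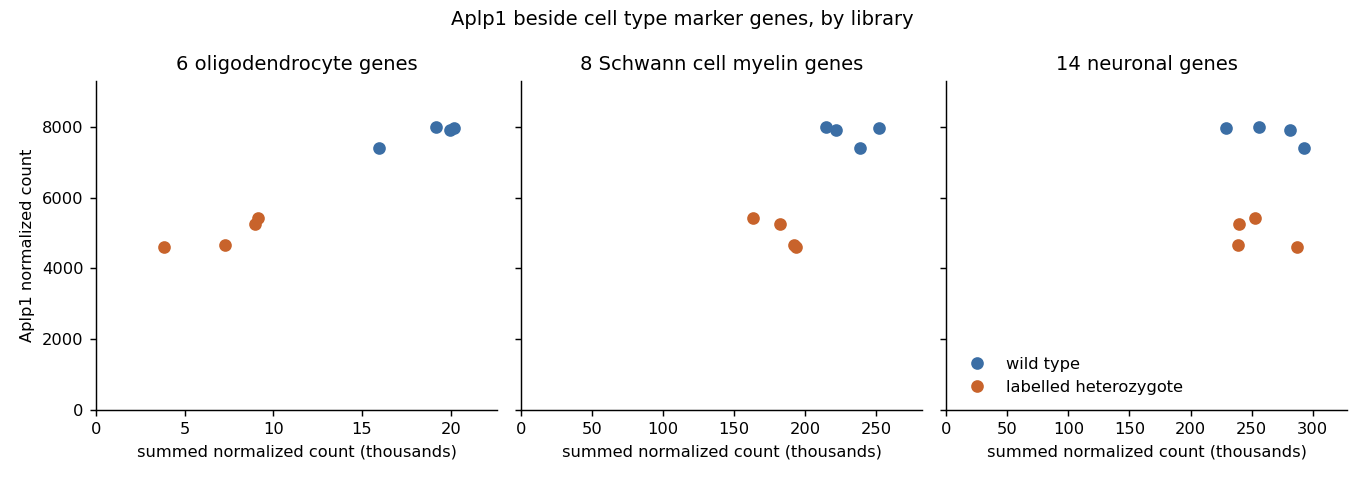
Aplp1 normalized count (vertical axis) against the summed normalized count (divided by 1000) of 6 oligodendrocyte, 8 Schwann cell and 14 neuronal genes, 1 point per library. The oligodendrocyte and Schwann cell sums separate the genotypes, as Aplp1 does, while the neuronal sums of the genotypes overlap.

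The genes around amyloid precursor processing were read from the same fit in 6 lists. Of 64 listed genes 63 were tested, and 0 had a limma-trend adjusted p under 0.05. At an unadjusted p under 0.05 there were 8 (12.7%), 6 higher and 2 lower, against 14.1% of all genes. In 4 (6.35%) the genotypes did not overlap, against 7.26% of all genes. All 4 were higher. Of all genes tested, 3.4% were higher without overlap and 3.86% were lower without overlap. The median log2 fold change was 0.086, with 42 of 63 above 0, against a median of 0.015 and 52.3% above 0 over all genes tested. Above 0 were 35 without wild-type library 1, 38 without the 2 libraries low in Xist and 33 with the length trend removed, and the last left 3 higher and 2 lower at an unadjusted p under 0.05.

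The alpha- and beta-secretases make the first cut. Their 5 genes had log2 fold changes from -0.14 (Bace2) to 0.12 (Bace1), and in none did the genotypes separate (7.26% of all genes did). Adam10, the main alpha-secretase of neurons, had 2659 ± 359 normalized counts in wild type and 2733 ± 187 in the other genotype (SD, n = 4 each; limma-trend adjusted p 0.857). Bace1, the beta-secretase, had 1781 ± 361 and 1900 ± 126 (limma-trend adjusted p 0.715), with wild-type library 1 lowest at 1293. Among 7 further gamma-secretase components and modulators the median log2 fold change was 0.013. Tmed10, a trafficking protein that binds the complex, had 3860 ± 183 and 3895 ± 155 (limma-trend adjusted p 0.951). Tmem59, which affects the glycosylation of APP, had 6042 ± 552 and 5470 ± 421 (limma-trend adjusted p 0.512).

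Of 16 adaptors and sorting receptors that bind APP or direct its traffic, 1 (6.25%, against 7.26% of all genes) had genotypes that did not overlap, a share near that of all genes. Lrp1, an endocytic receptor for many ligands, had 8045, 9405, 8616 and 7984 normalized counts in wild type. In the libraries labelled heterozygote it had 10079, 12781, 10668 and 11864. Its log2 fold change was 0.41 with an unadjusted limma-trend p of 0.00191 and an adjusted p of 0.214, so it did not pass. Clu and Cst3, secreted proteins that bind amyloid beta, were the most abundant of 7 genes for its degradation and binding. Clu had 30982 ± 6846 and 24142 ± 1104 normalized counts, and Cst3 had 14262 ± 2918 and 12526 ± 907 (limma-trend adjusted p 0.371 and 0.581).

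Other membrane proteins that gamma-secretase cuts formed the largest list, with 22 genes. Their median log2 fold change was 0.19, with 17 of 22 above 0, and 0 passed the adjusted threshold. The median was 0.093 without wild-type library 1, 0.082 without the 2 libraries low in Xist and 0.042 with the length trend removed. In 2 of 22 (9.09%, against 7.26% of all genes) the genotypes did not overlap. In Sdc3, a neuronal syndecan, the genotypes did not overlap, at 4284, 4093, 4591 and 3750 normalized counts in wild type against 5434, 5167, 5996 and 6235. Its log2 fold change was 0.45, with an unadjusted limma-trend p of 0.000577 and an adjusted p of 0.154. Without wild-type library 3, where 221 genes passed in all, Sdc3 was 1 of them. Notch3, a Notch receptor of mural cells, went from 486.1 ± 65.2 to 580.0 ± 31.4 normalized counts without overlap (limma-trend adjusted p 0.375).

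Notch receptors release their transcriptionally active tail through gamma-secretase. Of 6 Notch target genes 0 passed, and 3 of 6 had a log2 fold change above 0 (52.3% of all genes did). The genotypes of 1, Hes1, did not overlap (16.7% of the list, against 7.26% of all genes). Hes1 had 291.5 to 321.3 normalized counts in wild type and 329.8 to 431.3 in the libraries labelled heterozygote. The ranges nearly met, and the limma-trend adjusted p was 0.490. Hes5, a low gene, had the lowest log2 fold change of the list at -0.43, with genotypes that overlapped.

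**Figure D5:**
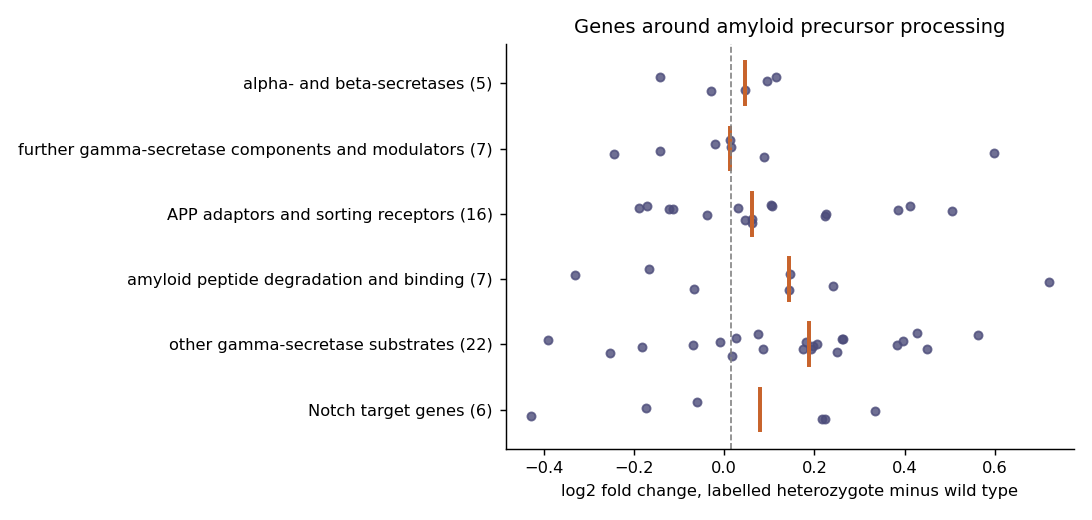
Log2 fold change (horizontal axis, libraries labelled heterozygote minus wild type) of each tested gene in the 6 lists, with the number of genes in brackets, the median of each list as an orange bar and the median of all genes tested as a dashed line. The medians lie between 0.013 and 0.19.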

How the data were processed

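The deposited table holds 1 signal value per gene and library, which the values show to be read counts scaled by library size factors. Per the submitters' processing notes, STAR, Partek, DESeq2 and mm10 were used, with roles and annotation not stated. Per the labels' protocols, RNA of integrity under 7 was discarded and directional poly(A) libraries were made. The authors' own comparison was deposited beside them as a p-value, FDR, ratio and log2 ratio, and as a signed score that was not used. In each library 89.3% to 92.3% of values under 1000 were whole multiples (within 0.06) of a step of 0.789 to 1.298, too few to treat them as reads. 3 reads correspond to 2.37 to 3.89 normalized counts.

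The 14870 genes that reached 10 normalized counts in 4 or more libraries were tested with limma-trend on log2(value + 1), without covariates, and Benjamini-Hochberg adjustment over all of them at 0.05. A fold change is on that scale. On simulated data for this comparison (14870 genes, 200 changed) the fit recovered 63 of 100 genes changed 2-fold and 89 of 100 changed 4-fold, and called 11 unchanged genes. The simulated noise was normal and independent between genes and libraries. Spread that the genes of a library share was not simulated, so these counts need not hold for the real libraries. Replicate numbers run from 1 to 8 and pair no libraries. Lengths and positions came from GENCODE M21 (97.6% of genes had a length) and promoters from RefSeq. The members and lists were chosen with earlier results of these data known. All members were named. Of each list, genes past the threshold and then those with a mean of at least 50 and no overlap were named, up to 4, or else the 2 of highest level. The 5 genes most like Aplp1 and App were to be named, and 1 of those for App is not reported here. The alternatives were other filters, pseudocounts of 0.1 and 10, upper-quartile and quantile scaling, a robust fit, sample quality weights, removal of the length trend (loess, span 0.5), exclusion of the 2 libraries low in Xist and of each library in turn. A fit with the leading residual principal component as covariate was added after seeing the data. Software was R 4.3.3, limma 3.58.1, Python 3.11.15, numpy 2.4.6, and for tables and plots pandas 2.3.3 with matplotlib 3.10.9.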

Additional observations from a re-analysis of the deposited data

Results flagged for a closer look

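In 34 groups of 4 libraries, 3 had 1 library far from its group, where chance alone would give 1.7. For Aplp1 in wild type, library 3 was low at 7394 normalized counts against 7908 to 8011, with a gap of 0.833 of the range. Without that library the log2 fold change of Aplp1 was -0.68. For Tmem59 in the libraries labelled heterozygote, library 8 was low at 4843 against 5621 to 5737, with a gap of 0.871 of the range. For Hes1 in the libraries labelled heterozygote, library 6 was high at 431.3 against 329.8 to 336.7, with a gap of 0.932 of the range.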

How the results depend on the processing

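The count of 12 genes past the threshold across the table was 7 with quantile normalization, 31 with the length trend removed, 96 with sample quality weights and 576 with the leading residual principal component as covariate. When 1 library was left out it ran from 0 to 221. It was 221 without wild-type library 3, 7 without heterozygote-labelled library 5 and 6 without number 7. It was 0 without number 2, 4 or 8, where 1919, 1451 and 1180 genes had an unadjusted limma-trend p under 0.05. The cause was not tested. The log2 fold change of Aplp1 stayed between -0.69 and -0.61 in all 19 alternatives. Aplp1 was chosen for its fall in these same libraries, so this range is a description and not independent support. None of the other 6 members passed in any of the 19, with limma-trend adjusted p from 0.239 to 0.988. Of the pathway genes, 1 passed with sample quality weights (Sdc3), 5 with the residual component (Apba1, Ece2, Epha4, Lrp1 and Sdc3), and 0 to 1 when 1 library was left out. The median of the degradation and binding list was -0.045 without the libraries low in Xist, and that of the Notch targets 0.22 at a mean of at least 50.

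Small fold changes turned direction. With the length trend removed App was at -0.11, Psen2 at 0.033, Aph1a at 0.065 and Psenen at 0.12. With sample quality weights Psen2 was at 0.057 and Aph1a at 0.016, and without the libraries low in Xist they were at 0.11 and 0.036. When 1 library was left out, Psen2 ran from -0.099 to 0.071, Ncstn from -0.073 to 0.018, Aph1a from -0.098 to 0.057 and Psenen from -0.25 to -0.054. No paired analysis was possible because the genotypes share no replicate numbers. Precision rests on 4 libraries per genotype, and p-values measure only the spread between these libraries.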
